A study of Caenorhabditis elegans with 2 samples.

Results

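The autosomal XND-1 peaks that came directly after the authors' thresholded peak set were described here, and are called second-tier peaks. They are 1797 of the 24467 peaks in the deposited list pooled over both replicates. They were chosen by the authors' peak score. The peaks kept by the authors' irreproducible discovery rate (IDR) procedure are exactly the first ranks of the pooled list, and the 1831 of these on autosomes, called IDR peaks, served for comparison. The second tier starts at the next rank and spans as many ranks as the IDR list holds, and the 44 peaks on the X chromosome among them (2.39%) were left out. The 1769 autosomal peaks at ranks 3683 to 5523 gave a view of the next step down. Because the second-tier peaks were selected on the pooled score, their scores, widths, q values and replicate support are given as descriptions, with no test.

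Chromatin immunoprecipitation and sequencing (ChIP-seq) was done on whole Caenorhabditis elegans hermaphrodites of strain QP0661, which carries an insertion that expresses XND-1 with GFP and FLAG at its C terminus. Worms were starved as L1 larvae after bleaching, so that they developed together, and were collected 50 h later as young adults. Sonicated chromatin was precipitated with an anti-GFP antibody, and 2 biological replicates of this 1 group make up the series. Lists from untagged worms were not analysed here, so regions that are enriched in any ChIP cannot be told apart from sites of XND-1. Peak lists hold no read counts, so the depth per replicate is unknown. Intervals on shares are exact Clopper-Pearson 95% intervals and cover the number of peaks only.

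The protein XND-1 sits on autosomes in germ cells, and it is known for its role in the meiotic breaks and crossovers of the X chromosome. A peak list made for IDR is deliberately loose, and the procedure compares the ranks of peaks between replicates. The peaks kept here were the first by pooled score. The boundary is thus a cut in that score and not in each peak's own replicate agreement. The peaks under its threshold can be weaker binding sites, sites used in few cells, or background. In whole worms, occupancy in few cells and weak occupancy in many cells cannot be told apart.

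The DNA under the summits of 6 second-tier peaks is shown, 5 as examples for the word results and 1 over a tRNA gene. All windows are the 101 bp centred on the summit, plus strand, from the RefSeq genome of the WBcel235 (ce11) build, and none has an IDR summit within 500 bp. Capitals mark AAAGGCGCA or its reverse complement in the first 3 windows, GCGCGC in the next 2, and GTTCGA in the last. The first 3 are the highest such peaks on chromosomes II to V that hold the word of 9 bases. They lie in introns of lact-9 (chrIV:13785334-13785434) and afmd-2 (chrIV:13513178-13513278) and at the promoter of pir-2 (chrIII:9443624-9443724). The others lie at the promoter of F08F3.6 (chrV:5420042-5420142), in intergenic sequence whose nearest protein-coding 5′ end is that of lin-48 (chrIII:3742230-3742330), and over the tRNA-Arg gene F35H8.t1 (chrII:9566198-9566298).
lact-9: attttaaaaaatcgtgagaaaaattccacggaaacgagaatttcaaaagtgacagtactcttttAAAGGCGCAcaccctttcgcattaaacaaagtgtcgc
pir-2: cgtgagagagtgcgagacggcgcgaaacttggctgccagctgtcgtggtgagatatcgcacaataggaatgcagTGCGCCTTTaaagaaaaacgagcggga
afmd-2: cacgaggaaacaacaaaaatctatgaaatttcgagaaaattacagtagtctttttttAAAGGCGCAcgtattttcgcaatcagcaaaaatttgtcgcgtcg
F08F3.6: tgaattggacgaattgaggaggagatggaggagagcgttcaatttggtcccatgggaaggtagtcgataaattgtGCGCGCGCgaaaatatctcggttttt
lin-48: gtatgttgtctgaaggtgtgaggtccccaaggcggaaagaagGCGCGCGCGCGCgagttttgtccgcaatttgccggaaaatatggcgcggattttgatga
F35H8.t1: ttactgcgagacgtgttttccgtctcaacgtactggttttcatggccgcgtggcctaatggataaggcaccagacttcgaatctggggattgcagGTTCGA

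Second-tier scores ran from 37.7 to 65.6 with a median of 47.1, whereas IDR peaks ran from 65.6 to 2548 with a median of 128. The score is the authors' signalValue, whose unit is not named in the sources used here. No gap separates the tiers. The last peaks above the boundary lay in a 3′ UTR near the calmodulin gene cmd-1 (65.7), at the promoter of sti-1 (65.6), which encodes an Hsp90 co-chaperone, and at that of idhg-1 (65.6), an isocitrate dehydrogenase subunit gene. Directly under it came the promoter of rap-3 (65.6), a gene of the Ras-like GTPase family, a 3′ UTR of skih-2 (65.5), a gene of the Ski RNA helicase family, and a 3′ UTR of atf-7 (65.5), which encodes a bZIP transcription factor. At the lower end the last 3 second-tier peaks were in a coding exon of gtbp-1, between genes near F56A6.8 and at the promoter of C38D4.10. They were followed at rank 3683 and on by summits near H04D03.7, in a coding exon near wbp-2 and in an exon of a pseudogene near pgl-2, and all 6 scored 37.7.

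The peaks were uniform in shape. The width was 460 bp in 1774 of them (98.7%), a standard width that 914 of the IDR peaks had (49.9%). The deposited q value stood at its cap of 3.78 on the −log10 scale in 1113 second-tier peaks (61.9%) and in all IDR peaks, and fell to 2.08 at the lower end of the second tier. None of the peaks at ranks 3683 to 5523 was at the cap. On ce10 the authors' IDR list held 2189 peaks and reached down to a score of 57.5, and 341 second-tier peaks (19%) had a ce11 score at or over that value. Which of them are in the ce10 list was not determined, since coordinates were not converted between builds.

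Promoters held fewer of the second-tier summits than of the IDR summits, and gene bodies held more. A promoter was the window from 500 bp before to 200 bp after the 5′ end of any protein-coding transcript. Of the second-tier summits 782 lay there (43.5%, interval 41.2% to 45.8%), against 1113 IDR summits (60.8%, 58.5% to 63%). The difference of −17.3 percentage points passed the two-sided Fisher's exact test (adjusted exact p = 1.78e-24, Benjamini-Hochberg over the 19 shares compared). It was −8.01 points with a window from 200 bp before to 100 bp after the 5′ end (adjusted exact p = 3.42e-07). Peaks are not independent replicates, so these p-values describe the lists and not a population of worms.

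Coding exons showed the largest relative difference among the 7 features. They held 204 second-tier summits (11.4%, 9.92% to 12.9%) and 47 IDR summits (2.57%, 1.89% to 3.4%), a ratio of 4.42 (adjusted exact p = 1.03e-25). The difference of 8.79 points was 13.8 without replicate 1, and 5.66 among peaks that ranked within the second tier's limit in both replicates. Summits in 3′ UTRs made up 5.79% against 2.24% (adjusted exact p = 1.79e-07), and those in introns 15.4% against 10.3% (adjusted exact p = 1.51e-05). Intergenic sequence held 19.9% against 21.5%, a difference that missed the threshold (adjusted exact p = 0.299) and passed it with the narrower promoter window (−12.2 points, adjusted exact p = 1.83e-13) and without replicate 1 (−3.16 points, adjusted exact p = 0.0407). Neither 5′ UTRs (0.612% against 0.273%, adjusted exact p = 0.189) nor other exons (3.39% against 2.29%, adjusted exact p = 0.0985) passed.

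Shares were also taken by rank within the second tier and after it. Promoters held 45.3% of the 895 summits down to rank 2762 (42% to 48.6%), 41.8% of the 902 from rank 2763 on (38.6% to 45.1%) and 31% at ranks 3683 to 5523 (28.8% to 33.2%). Coding exons held 9.39% (7.56% to 11.5%), 13.3% (11.2% to 15.7%) and 25.6% (23.6% to 27.7%). Between the upper and lower ranks of the second tier neither share passed the two-sided Fisher's exact test, promoters with an adjusted exact p = 0.711 and coding exons with an adjusted exact p = 0.176 over the 19 shares. The step to the following ranks was not tested.

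**Figure D1:**
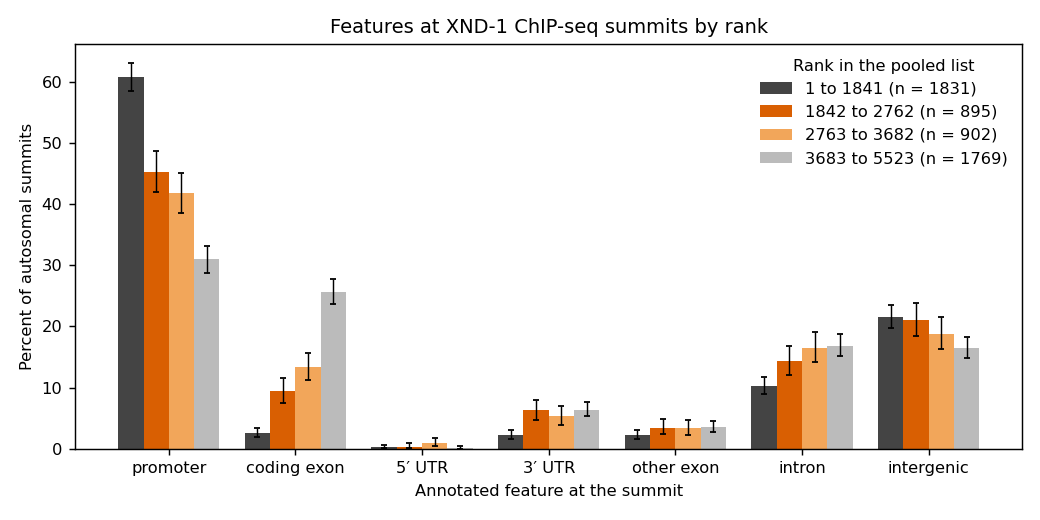
Percent of autosomal summits in each annotated feature, for IDR peaks, the upper and lower ranks of the second tier and the following ranks; bars show the share and lines the exact 95% interval. Promoter shares step down from 60.8% to 31% and coding exon shares step up from 2.57% to 25.6%.

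Within promoters the summits also sat differently. The median position was −120 bp from the nearest 5′ end in the second tier, with quartiles of −246 and 12.5, and −176 bp among IDR peaks, with quartiles of −276 and −76. These positions were not tested. Windows of genes on both strands, as at divergent promoters, held 131 second-tier summits (7.29%, 6.13% to 8.59%) and 277 IDR summits (15.1%, 13.5% to 16.9%), a difference of −7.84 points (adjusted exact p = 3.31e-13) that was −1.43 points with the narrower window (adjusted exact p = 0.0186) and −12 points with a window from 1000 bp before to 500 bp after.

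Along the autosomes the tiers were spread alike, with 39% and 38.3% of summits in the central one of 3 equal parts of a chromosome (adjusted exact p = 0.694). Chromosome IV held 20.4% of second-tier summits and 17% of IDR summits, or 21 and 17.8 peaks per Mb (adjusted exact p = 0.0157). That call was lost in the list of either replicate alone, with a difference of 2.04 points without replicate 2 (adjusted exact p = 0.215) and 2.21 without replicate 1 (adjusted exact p = 0.148). The other autosomes did not pass the test, with adjusted exact p-values from 0.101 to 0.894.

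Almost every second-tier peak overlapped a peak in both replicates. The median rank of the overlapping peak was 2737 in replicate 1 and 2764 in replicate 2, with quartiles of 2018 and 3879 in replicate 1 and 2056 and 3938 in replicate 2. A peak of each replicate's own list, at any rank, overlapped 1785 of 1797 by at least 1 bp (99.3%, 98.8% to 99.7%). Those lists are loose, with 22772 and 22364 peaks, so such an overlap is a low bar. A stricter measure counts only replicate peaks ranked no lower than the last IDR peak is in the pooled list, the IDR rank limit. Such peaks of both replicates overlapped 159 second-tier peaks (8.85%), those of replicate 1 alone 190 (10.6%), those of replicate 2 alone 162 (9.02%) and those of neither 1286 (71.6%). Down to the rank of the last second-tier peak, the second-tier rank limit, peaks of both replicates overlapped 851 (47.4%, 45% to 49.7%). For IDR peaks the same counts were 1508 within the IDR rank limit of both (82.4%) and 1816 within the second-tier limit (99.2%). Pooled and replicate lists share their reads, which makes this overlap a description and no test.

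Support was lower in the lower ranks. Peaks within the second-tier rank limit of both replicates overlapped 71.2% of the second tier down to rank 2762 and 23.7% from rank 2763 on. The 12 peaks with no overlapping peak in 1 replicate, 6 lacking each replicate, all ranked 3223 or lower. The highest was the promoter of ZC412.10 (pooled score 41.6), which overlapped a peak of replicate 1 with a score of 30.7 and none of replicate 2. Next came a coding exon of rla-0 (41.6), which encodes the acidic ribosomal protein P0, with 37.4 in replicate 2 only. An intron of the J-domain gene dnj-1 (39.9) had 22.3 in replicate 1 only. A coding exon of T02G5.7 (39.7) had 37.8, and a pseudogene exon near R03D7.2 (39.6) had 30.5, both in replicate 2 only.

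Peaks that were strong in 1 replicate only differed in where they lay. Of the 190 within the IDR rank limit in replicate 1 alone, 54.7% were in promoters (47.4% to 62%) and 15.8% were intergenic (10.9% to 21.8%). Of the 162 in replicate 2 alone, 34% were in promoters (26.7% to 41.8%) and 29.6% were intergenic (22.7% to 37.3%). The promoter intervals do not overlap. This split was noticed in the data and was not tested.

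The best-ranked overlapping replicate peaks were found for second-tier peaks beside a stronger one. In all, 192 second-tier summits (10.7%, 9.29% to 12.2%) lay within 500 bp of an IDR summit, the nearest at 199 bp and with a median of 203 bp. Of these, 178 lay within 250 bp and none between 401 and 500 bp. They had 191 distinct IDR neighbours, whose median rank was 942, and 189 second-tier intervals overlapped an IDR interval. IDR summits were spaced in the same way, with 234 of 1831 (12.8%) within 500 bp of another. Of the 159 second-tier peaks within the IDR rank limit in both replicates, 154 were among these flanking peaks. An overlap of intervals cannot separate the flanking summit from its neighbour. The replicate scores of flanking peaks are therefore not a measure of support for the flanking summit itself. Their overlapping replicate peaks had median ranks of 930 in replicate 1 and 919 in replicate 2, near the neighbours' median rank of 942.

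**Figure D2:**
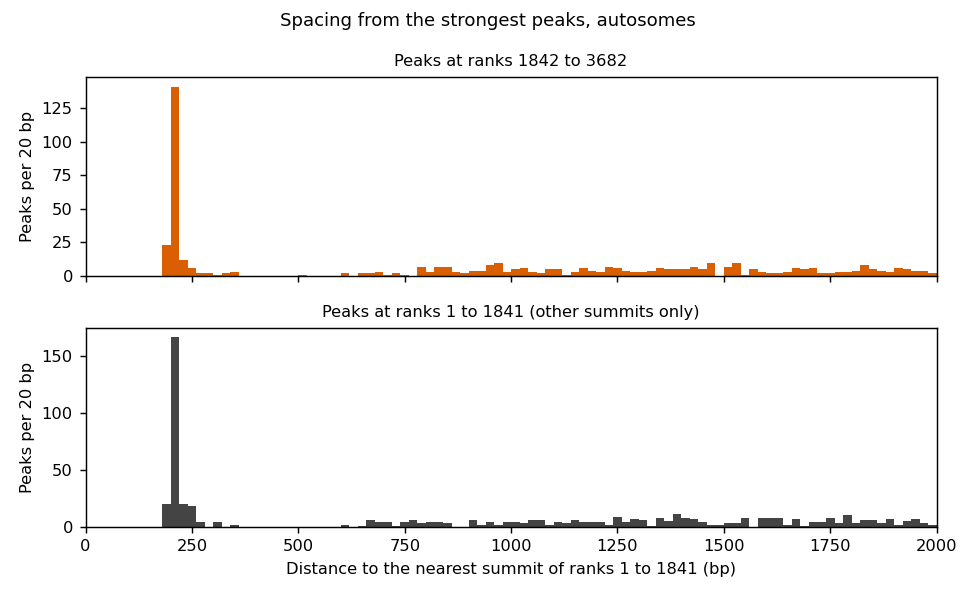
Number of peaks per 20 bp of distance (bp) from the nearest IDR summit, for second-tier peaks (top) and for IDR peaks with themselves left out (bottom). Both panels rise steeply just above 199 bp, and second-tier peaks are missing between 401 and 500 bp.

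All 10 second-tier peaks with the best replicate ranks were of this kind. They include genes of oogenesis and the early embryo. Beside rod-1, a gene of the kinetochore checkpoint, the second-tier summit had a pooled score of 60.3, its overlapping replicate peaks had 385 and 416 in replicates 1 and 2, and it lay 200 bp from the summit of rank 82. At cpg-4, a chondroitin proteoglycan gene, the pooled score was 55 and the replicate scores were 429 and 410. The oocyte maturation gene oma-1 had 49.3 pooled with 376 and 414, and the summit lay 210 bp from that of rank 85. At csc-1, a chromosomal passenger gene, the values were 47.3, 307 and 324. The germline fate gene pie-1 had 39.2 pooled with 358 and 324, and its pooled score is the lowest of the 10.

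The others gave the same picture. A summit in an intron of T06D8.10 had 43.1 pooled with 303 and 338 in replicates 1 and 2. One in an intron of the nuclear receptor gene nhr-64 had 54.1 with 288 and 299. At sygl-1, a gene of germline stem cells, the values were 63.8, 278 and 286. A summit in a coding exon of T28D6.7, whose nearest 5′ end is that of the gamma-secretase gene pen-2, had 54.5 with 277 and 285, and the promoter of F01G4.4 had 44.5 with 294 and 271. A replicate summit lay within 100 bp of the second-tier summit in both replicates for 140 of the 192 flanking peaks (72.9%, 66% to 79.1%) and for 1323 of the 1605 others (82.4%, 80.5% to 84.3%).

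The 1605 second-tier peaks more than 500 bp from an IDR summit had replicate scores between 7.77 and 62.5 in replicate 1 and between 8.47 and 54.2 in replicate 2, with medians of 24.5 and 24.4. For comparison, the score at the IDR rank limit was 34.5 and 35.5 in the replicates' lists. Only 5 of the 1605 were overlapped by peaks within that limit in both (0.312%, 0.101% to 0.725%). Within the second-tier rank limit of both it was 662 (41.2%, 38.8% to 43.7%), against 189 of the 192 flanking peaks (98.4%). The 851 peaks within that limit, also used as a check on shares, thus include these flanking peaks. Some stood at far apart ranks in the replicates' lists. A summit near ragc-1, a gene of the Rag GTPases, overlapped the peak of rank 17745 in replicate 1 (score 8.98) and that of rank 1422 in replicate 2 (44.2). The promoter of the mitochondrial gene bcs-1 went the other way, with rank 1225 (49.4) and rank 11159 (12). Both genes were chosen after their values were seen.

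**Figure D3:**
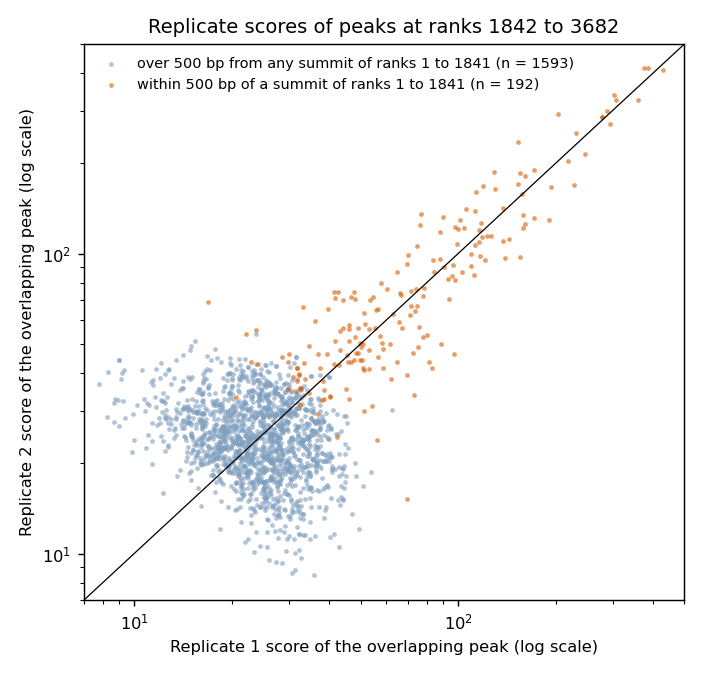
Score of the overlapping replicate 2 peak against that of replicate 1 on log scales, 1 point per second-tier peak with a peak in both, with the line of equal scores. The 192 peaks within 500 bp of an IDR summit spread along the line up to 429, whereas the other 1593 form a cloud below 62.5.

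Second-tier summits reached many genes that had no IDR peak. Of 17242 autosomal protein-coding genes, 898 had a second-tier summit in the promoter window (5.21%), and 772 of these had no IDR summit there (4.48%). The 898 genes were 475 with the window from 200 bp before to 100 bp after the 5′ end and 1258 with that from 1000 bp before to 500 bp after it. IDR summits lay in the windows of 1324 (7.68%), so that the tiers together reached 2096 (12.2%). The counts of gene lists below are to be read against 4.48% of all genes reached by the second tier only and 7.68% reached by IDR peaks. A gene with an IDR summit cannot count as reached by the second tier only, which lowers that share in lists rich in IDR peaks. The lists were chosen with results of these data known and were not tested. A summit in the windows of several genes counted for each of them. The summits named for ekl-1, set-32 and sas-6 lay nearer to the 5′ ends of prpf-4, mina-1 and Y45F10D.7. Those for rps-20, rpl-31, mrps-18B, mrps-35 and col-71 lay nearer to those of ekl-4, sac-2, prp-9, sws-1 and Y49F6B.2. At htp-2, rmh-1, nos-3, air-2 and rpn-1 the summit was shared too, with the listed gene nearer.

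Meiotic and germline lists already had many genes with IDR peaks, and the second tier added 1 to 6 genes to each. In meiotic break formation, recombination and pairing, 14 of 35 genes had an IDR summit and 6 had a second-tier summit only (17.1%). They were zim-3, dsb-1, rmh-1, him-17, rad-51 and com-1. At zim-3, which encodes a zinc-finger protein of chromosome pairing centres, the summit had a pooled score of 58.9, with 21.7 in replicate 1 and 40.7 in replicate 2, and lay 193 bp upstream of the 5′ end. The gene dsb-1, needed for meiotic double-strand breaks, had 51.8 pooled with 21.5 and 26. At rmh-1, a gene of crossover regulation, the values were 49.5, 21.7 and 28.8. The summit at him-17, a chromatin protein gene needed for meiotic breaks, had 46.7 pooled with 16.4 and 31.6. The recombinase gene rad-51 had 44.9 with 20.3 and 25.5, and com-1, a gene of break resection, had 40.8 with 28.3 and 12.

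In the synaptonemal complex and axis list 9 of 15 genes had an IDR summit, and the second tier added htp-2, a gene of the HORMA domain axis proteins, with 43.2 pooled and 27 and 19.5 in replicates 1 and 2. Translational control had 24 of 36 genes with an IDR summit and 4 with a second-tier summit only (11.1%). These were nos-3, a nanos family gene (62.1, with 33.9 and 26.3), the cap-binding protein genes ife-3 (59.5, with 33.1 and 26.8) and ife-1 (47, with 18.8 and 28), and cpb-3, a CPEB family gene (51.6, with 20.1 and 36.1).

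Of the P granule and small RNA pathway genes, 17 of 34 had an IDR summit and 2 had a second-tier summit only (5.88%). They were ekl-1, a gene of endogenous small RNA pathways, with 59.5 pooled and 28.7 and 30 in the replicates, and pid-2, a piRNA pathway gene, with 45.8, 25.9 and 20.5. Germline chromatin had 10 of 24 with an IDR summit, and the second tier added the methyltransferase gene set-32 (43.1, with 26.7 and 12.5). DNA replication had 15 of 30, and the second tier added rfc-3, a clamp loader gene, whose summit 12 bp upstream of the 5′ end had 65.2 pooled with 23.9 and 37.8. For these 3 lists the share reached by the second tier only was 5.88% (0.72% to 19.7%), 4.17% (0.105% to 21.1%) and 3.33% (0.0844% to 17.2%). The intervals include the 4.48% of all genes, but each share rests on 1 or 2 genes. Many genes of these lists could not count, since they have an IDR summit, so the shares cannot be ranked against all genes.

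The kinetochore and cell cycle list had 19 of 41 genes with an IDR summit and 5 with a second-tier summit only (12.2%). The highest was kbp-3, a kinetochore gene, at 59.8 pooled with 25.6 and 36.4 in replicates 1 and 2. The centriole gene sas-6 had 50.2 with 30.5 and 15, the kinetochore scaffold gene knl-1 had 48.2 with 15.1 and 32.9, and the Aurora B kinase gene air-2 had 43.4 with 27.8 and 14.1. The fifth was bir-1, the survivin homologue, at 39.6. The genes air-2 and bir-1 encode partners in the chromosomal passenger complex, as does csc-1, whose IDR peak has the second-tier summit described before beside it.

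As percent of the whole list, the proteasome and cytosolic ribosomal protein lists had the highest shares of genes reached by the second tier only. The list of breaks, recombination and pairing was close, at 17.1% (6.56% to 33.6%). With genes that also have an IDR summit counted, the order changed. Second-tier summits then reached 25.7% of that list, 21.2% of the proteasome and 20.3% of ribosomal protein genes, against 5.21% of all genes. The proteasome had 9 of 33 genes with an IDR summit and 7 with a second-tier summit only (21.2%, 8.98% to 38.9%). Among the 7, pas-4 of the core particle had 64.9 pooled with 33.5 and 36.1 in replicates 1 and 2, at a summit that also lay in the promoter of the RNA polymerase II gene rpb-3. The regulatory particle genes rpn-10 (59, with 34.4 and 22.3), rpt-6 (55.9, with 25.9 and 28.9) and rpn-1 (55.6, with 33.2 and 21.4) came next. Cytosolic ribosomal proteins had 34 of 79 with an IDR summit and 14 with a second-tier summit only (17.7%, 10% to 27.9%). Their highest summits were at rpl-36.A (65.3, with 33.9 and 30.2), rps-20 (64.8, with 44.4 and 19.6), rpl-31 (63.6, with 30.1 and 36.7) and rps-30 (60.8, with 36.2 and 20.9). The first of these also lay in the window of nuo-1, a respiratory complex I gene, and the last in that of rpl-39, so that 1 peak counted for a pair of genes. The peak of rank 2785 likewise counted for both rps-14 and rpl-36. The interval treats the 14 genes as separate, which they are not.

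Mitochondrial respiration and ribosome genes had 19 of 107 with an IDR summit and 8 with a second-tier summit only (7.48%, 3.28% to 14.2%). All of the highest 4 encode mitochondrial ribosomal proteins. They were mrpl-50 (60.1, with 23.1 and 38.6 in replicates 1 and 2), mrps-18B (55.8, with 29.5 and 27.9), mrps-6 (54.2, with 23 and 32.8), whose summit also lay in the window of the proteasome gene rpn-8, and mrps-35 (53.2, with 26 and 21.2). The peak of rank 3119 counted for both mrpl-1 and mrps-24 of this list.

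The second tier added few genes or none to the somatic and sperm lists. IDR summits lay at 4 sperm (5.56%), 4 intestinal (1.62%) and 5 chemoreceptor genes (0.638%). They lay at 2 collagen and body shape genes (1.29%), 1 neuronal gene (1.11%) and 0 muscle genes. No second-tier summit lay at any of 72 sperm protein genes (exact upper limit 4.99%), 247 intestinal genes (1.48%) or 8 muscle genes (36.9%), and the intestinal list is made mostly of C-type lectin genes. Chemoreceptors had 1 of 784 with a second-tier summit only, srw-95 (49.6, with 16.4 and 32.5 in replicates 1 and 2). Cuticle collagen and body shape genes had 3 of 155 (1.94%, 0.401% to 5.55%), namely col-71 (55.3, with 37.1 and 16.2), col-120 (55.2, with 28 and 22.7) and dpy-11 (40.3, with 24.9 and 26.5), which encodes a thioredoxin-like protein of the epidermis. The neuronal list had 1 of 90, the synaptobrevin gene snb-1 (49, with 19.8 and 25.4). Only the intestinal and chemoreceptor intervals (upper limits 1.48% and 0.709%) lay under the 4.48% of all genes. Those of the sperm, muscle, collagen and neuronal lists included it.

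**Figure D4:**
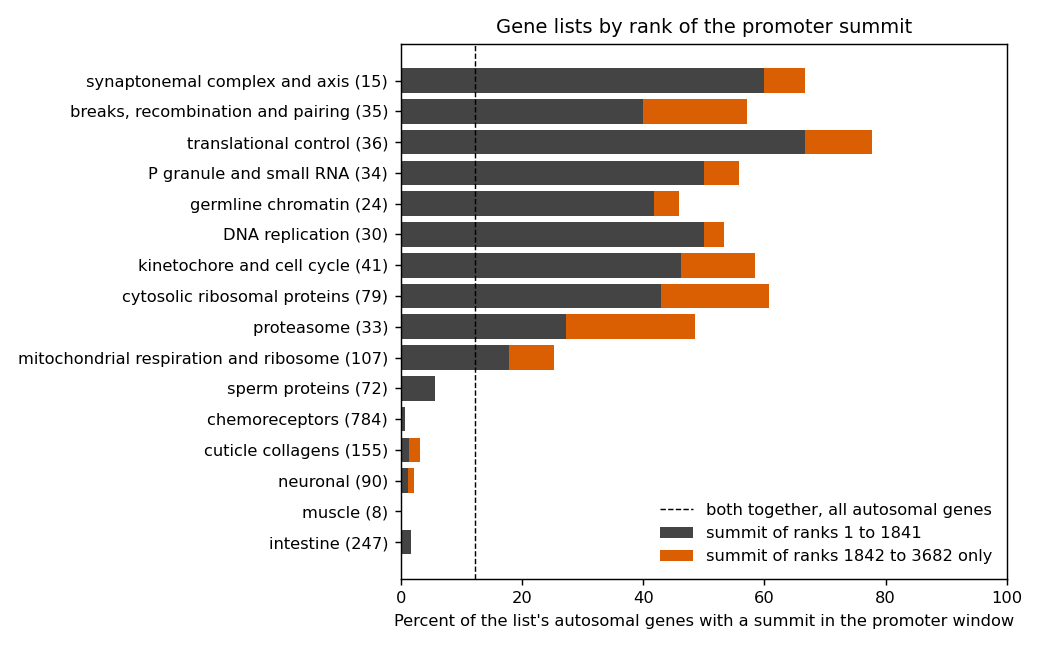
Percent of the autosomal genes of each list (number of genes in brackets) with an IDR summit in the promoter window, and added to it the percent with a second-tier summit only; the dashed line is the sum over all autosomal protein-coding genes. The added part is longest for the proteasome (21.2%) and ribosomal proteins (17.7%) and is 0 for sperm, muscle and intestinal genes.

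Some host genes of gene-body peaks had an IDR peak at the promoter as well. Coding exons, introns and 3′ UTRs held 585 second-tier summits, of which 576 had a protein-coding host, 536 genes in all. An IDR summit lay in the promoter of 104 of these hosts (19.4%), against 21.1% of the hosts of IDR gene-body peaks and 7.68% of all autosomal protein-coding genes, with no test of these shares. Along the host the summits lay at a median of 69.9% of the gene's length from its 5′ end, with quartiles of 35.8% and 90.6%, and those of IDR peaks at 60.7%. The highest in a coding exon away from IDR summits was at ama-1, which encodes the largest subunit of RNA polymerase II, 7018 bp into the gene, with a pooled score of 64.7. The highest in a 3′ UTR was that of skih-2, with 34.3 and 35 in replicates 1 and 2. Next were a 3′ UTR of sqv-5 (64.1 pooled), a chondroitin synthase gene, with 27.2 and 35, and a 3′ UTR of dhp-1 (62.9), a dihydropyrimidinase gene, with 29.9 and 39.3. These genes were chosen after their values were seen.

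Genes of small structural RNAs differed between the tiers in both directions. Within 100 bp of a tRNA gene lay 54 second-tier summits (3.01%, 2.27% to 3.9%) and 20 IDR summits (1.09%, 0.668% to 1.68%; adjusted exact p = 0.000133). They touched 55 of the 336 autosomal tRNA genes (16.4%), whereas IDR summits touched 25 (7.44%). None of the 55 had an IDR summit as well. No second-tier summit lay closer than 199 bp to an IDR summit, which limits how many genes could have both. Near snoRNA genes the shares were 1.56% and 3.22% (adjusted exact p = 0.00253), a call lost among peaks within the second-tier rank limit of both replicates (adjusted exact p = 0.0502) and among those down to rank 2762 (adjusted exact p = 0.102). Near snRNA genes they were 0.89% and 2.18% (adjusted exact p = 0.00368), a call that the list of either replicate alone did not give (−0.851 points in both, adjusted exact p = 0.068 without replicate 2 and 0.0744 without replicate 1). Over all noncoding genes the shares were 10.4% and 11.4% (adjusted exact p = 0.408). At ranks 3683 to 5523 the share near tRNA genes was 2.32% (1.67% to 3.13%), so it was not particular to the second tier. The shares there near snoRNA and snRNA genes were 0.848% and 0.452%. These ranks were not tested.

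The tRNA genes are of many kinds, with 6 for proline, 5 each for alanine, arginine, leucine and serine, and 4 or fewer for each of the 13 others. This tally has more entries than the 55 genes touched, and was not set against the number of autosomal tRNA genes of each kind. None of the 54 summits lay within 500 bp of an IDR summit, 18 were in other exons, 12 in promoters of protein-coding genes, 12 between genes and 10 in introns. Their replicate 1 scores ran from 9.39 to 51 with a median of 24.5, and those of replicate 2 from 10 to 39.4 with a median of 23, close to the medians of all second-tier peaks away from IDR summits. The highest were the tRNA-Arg gene F35H8.t1, whose window is shown above (65.1 pooled, with 30 and 30 in replicates 1 and 2), and the tRNA-Leu gene F22B7.t1 (65, with 37.3 and 32.6), which lies in the promoter window of fip-1. Next were F15B9.t1 for alanine (63.8, with 23.5 and 39.4), F57F5.t1 for isoleucine (62.4, with 36.6 and 22.7) and W02G9.t2 for threonine (61.6, with 31.4 and 32.9), the last 3 named after their values were seen. The remaining 3 of the 5 highest peaks near any noncoding gene, at the promoters of nuo-1, Y37E3.8 and F44E7.5, had unnamed ncRNA genes beside them. GTTCGA, letters of the internal B box promoter of tRNA genes, was in the windows of 15 of the 54. It was in 4.56% of all second-tier windows, 4.04% of IDR windows (adjusted exact p = 0.732) and 3.79% of autosomal windows of 101 bp.

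Words of DNA within 50 bp of the summit differed in frequency between the tiers. All 2080 words of 6 bases, each counted with its reverse complement on both strands, were compared by presence within 50 bp of the summit. Fisher's exact test called 164 of them (7.88%) at an adjusted p under 0.05, 107 lower and 57 higher in the second tier. The 10 with the lowest adjusted p were all lower, and several overlap each other by 5 bases. AGGCGC was in 6.96% of second-tier windows, 20.3% of IDR windows and 1.52% of autosomal windows (adjusted exact p = 2.4e-29). CCTTTA was in 7.23% and 19.9%, ACCGTA in 6.79% and 19.1%, GAGACC in 8.12% and 21%, and ATGCGC in 4.67% and 15.3%. Next came GGCGCA in 8.24% and 20.8%, AAGGCG in 7.4% and 19.2%, AGACCC in 4.34% and 13.8%, CGAGAC in 7.96% and 19.2%, and AAAGGC in 7.9% and 19.1%. The largest adjusted exact p of the 10 was 6.47e-21.

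Words that were more frequent in the second tier had small shares. The lowest adjusted p was that of GATCCA, in 2.95% of second-tier and 0.983% of IDR windows (adjusted exact p = 0.000789) and 3.57% of autosomal windows. The palindrome GACGTC was in 3.45% and 1.42% (adjusted exact p = 0.00286) and in 1.48% of autosomal windows. Both were named after their values were seen. The GC content moved with these words, with a median of 39.6% in second-tier windows and 41.6% in IDR windows, and 48.9% of the former had at least 40% against 57.8% (adjusted exact p = 2.6e-07). Its part in the word counts was not tested. The count of called words and its split moved with the list used. Without replicate 2 it was 270 words, 127 of them higher in the second tier, and without replicate 1 it was 272, 141 of them higher. Of these, 125 and 123 words were among the 164. Within 100 bp of the summit 280 were called, 143 of them higher, so the lean to lower words did not hold in every setting.

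**Figure D5:**
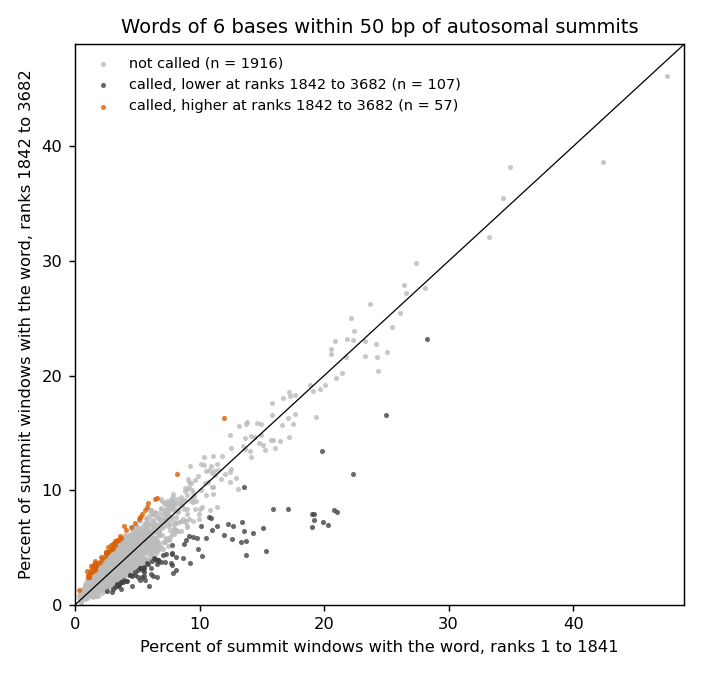
Percent of second-tier windows (within 50 bp of the summit) that hold each of 2080 words of 6 bases, against the percent of IDR windows, with the line of equal shares. The 107 words called lower in the second tier lie under the line, AGGCGC at 6.96% against 20.3% among them, and the 57 called higher lie above it.

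The second-tier summits still differed from their own surroundings. Each summit window was set against 1 window 300 bp away, the side drawn at random, and the exact McNemar test called 258 words (12.4%), 179 of them higher at the summit. GCGCGC led, in 6.07% of summit windows, 1.17% of flanks and 0.661% of autosomal windows (adjusted exact p = 9.41e-13), and 2 windows with it are shown above. GGCGCA was in 8.24% and 2.5% (adjusted exact p = 2.77e-12), and CGCGCC in 6.23% and 1.34%. The other 7 of the first 10 are also rich in G and C. ACGCGC was in 6.84% and 1.78%, AGCGCG in 5.79% and 1.34%, GCGCGA in 5.73% and 1.34%, CGCGCA in 7.01% and 2.17%, GCGGGA in 8.24% and 2.95%, CGCGCG in 4.28% and 0.668%, and GACGCA in 7.51% and 2.45%. The median GC content was 36.6% in the flanks against 39.6% at the summits, whose part was not tested. The count was 144 without replicate 2 and 99 without replicate 1, of which 95 and 73 were among the 258.

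Of the 107 words lower than among IDR peaks, 59 (55.1%) were among the 179 higher than in flanks, of which they make up 33%. Those 107 and 179 were each out of all 2080 words. Both tests used the same second-tier windows and several words overlap, so the 59 are not separate items, and their number was not tested. Joining overlapping words after the tests were seen gave 3 longer ones. AAAGGCGCA was in 12.7% of IDR windows (11.2% to 14.3%), 3.62% of second-tier windows (2.8% to 4.59%), 1.47% at ranks 3683 to 5523 (0.962% to 2.15%) and 0.328% of autosomal windows. GGTCTCG was in 16.4%, 5.79%, 4.18% and 1.12%, and TACCGTA in 12.4%, 4.45%, 3% and 1.47%. AAAGGCGCA was in 3.65% (1.48% to 7.37%) of the 192 windows beside IDR summits and 3.61% (2.76% to 4.65%) of the other 1605. The windows at lact-9, pir-2 and afmd-2 hold this word, and their replicate scores were 24.3 and 37.9, 42.4 and 29.2, and 28.3 and 35.7 in replicates 1 and 2.

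Where the word occurred in the second tier, it lay mostly in masked sequence. Within 100 bp of the summit it occurred 106 times, of which 91 (85.8%) were in soft-masked sequence, against 77.1% among IDR peaks and 81.1% of its 2920 autosomal occurrences. Soft-masking marks repeats and simple sequence and covers 36.8% of the autosomes. GGTCTCG was paired with it 60 times, and in 44 (73.3%) the start lay 25 to 29 bp after it on the same strand or 40 to 43 bp after it on the other. Among IDR peaks 104 of 141 pairs (73.8%) did so. These distances were read from the data and were not tested.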

How the data were processed

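The deposited files are peak lists with 1 row per summit, called by the authors with a control file, per replicate and on both pooled, on ce10 and ce11; the loose lists were made as input for IDR, and an IDR-thresholded list stands beside them, per the deposited descriptions of the files. The aligner, caller and IDR cut-off are not given in the sources used here. The deposited signalValue is a score with no stated unit, used here to rank and describe peaks within a list; scores of different lists stand side by side as values, since whether they share a scale is not stated, and the deposited q value is stored as −log10. The second-tier peaks and the gene lists were chosen with earlier results of these data known.

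Second-tier peaks are ranks 1842 to 3682 by score and IDR peaks ranks 1 to 1841. Summits were annotated on ce11 with Ensembl WBcel235 release 115, where a promoter took precedence over a coding exon, then the UTRs, any other exon, an intron and intergenic sequence; tRNA products and sequence came from RefSeq. Shares and words were compared by two-sided Fisher's and exact McNemar tests with Benjamini-Hochberg adjustment at 0.05, and the tests were tried on simulated data. The labels call the replicates biological. Named are peaks at both ends of the rank range, the 10 with the best worse replicate rank, the first 5 lacking a replicate and the first 5 near a noncoding gene, up to 4 genes per list, and 10 words per test; exceptions are marked. The tools were scipy 1.17.1 and numpy 2.4.6 for tests, pandas 2.3.3 for tables and matplotlib 3.10.9 for figures, under Python 3.11.15.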

Additional observations from a re-analysis of the deposited data

How the results depend on the processing

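Of 104 alternative values, 80 kept their direction and side of the threshold or moved by less than their interval, 9 lost a call, 2 gained one, 13 moved further and 0 changed sign where called. The promoter share of second-tier peaks (43.5%) was 24.3% with the narrower window, 59.2% with a window of 1000 bp before to 500 bp after the 5′ end, 46.9% among peaks within the second-tier rank limit of both replicates, and 39% to 41.6% in the replicates' own lists. Its difference from IDR peaks stayed below 0 and called throughout (−19.7 to −8.01 points). The intergenic difference was −12.2 points with the narrower window and −3.16 to −1.97 in the replicates' lists. Support in both replicates (99.3%) was 81.4% with summits within 100 bp and 95.9% with a reciprocal overlap of 50%. Genes reached (898) were 475 with the narrower window and 1258 with the wider one. Words called against IDR peaks (164) were 280 within 100 bp of the summit and 270 to 272 in the replicates' lists; words against flanks (258) were 99 to 144 there. The cause was not tested. Lost calls were those of chromosome IV, snRNA and snoRNA genes; the snoRNA call was lost within the second-tier rank limit of both replicates (adjusted exact p = 0.0502) and down to rank 2762 (adjusted exact p = 0.102). Alternatives for these, coding exons, 3′ UTRs, both-strand promoters, tRNA genes, GC content and flanking peaks were added after the data were seen. No paired analysis was possible because the series has 1 group. Unknown depth limits any statement on absent peaks.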

Other observations

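Of the other noncoding classes, genes of biotype ncRNA were the most frequent, within 100 bp of 102 second-tier summits (5.68%) and 108 IDR summits (5.9%). Annotated pseudogenes lay within 100 bp of 30 second-tier summits (1.67%) and 11 IDR summits (0.601%). Of the 29 pseudogenes reached, 26 had no IDR summit, and IDR summits lay near only 0.564% of the 1950 autosomal pseudogenes. Among miRNA genes 1 of 187 was reached, against 5 by IDR summits, and of the summits 4 lay near a piRNA gene, against 12 among IDR peaks. For lincRNA genes the counts were 4 and 8. These classes were looked at after the tests and were not compared by a test.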
